A study of Arabidopsis thaliana with 2 samples.

Results

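BONSAI (BNS, AT1G73177) and the 3 kb on each side of it were examined in the DNA methylomes of Arabidopsis thaliana plants homozygous for ibm1-1, in the first generation. BNS was chosen as a gene known to gain non-CpG methylation in ibm1 mutants. The stretch around it, chr1:27513572-27520882 in the TAIR10 build, was set by its coordinates and not by levels in these libraries. It holds 1 of the 27444 protein-coding genes counted and 73 of the 1191458 windows of 100 bp in the nuclear chromosomes. The study compared 2 libraries, 1 of ibm1-1 in Col-0 and the other of ibm1-1 in Ler-0, made from 150 ng of DNA of 3-week-old rosette leaves of plants grown in long days (16 h light, 8 h dark) at 21°C. Both libraries carry the ibm1-1 mutation, and the Ler-0 line was made by crossing the Col-0 mutant repeatedly to Ler-0, so that its ibm1-1 allele comes from Col-0. WT plants were not analysed here, so a level in these libraries cannot be split into what WT plants carry and what the mutation adds.

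BNS encodes a small APC13-like subunit of the anaphase-promoting complex, the ubiquitin ligase that drives exit from mitosis. The gene ends next to a LINE retrotransposon remnant, AT1G73175, and is known for becoming methylated and silenced when DDM1 or IBM1 is lost. IBM1 removes H3K9 methylation from gene bodies, and without it CMT3, the methyltransferase of CpHpG sites (H stands for A, C or T), can act there together with KYP. MET1 maintains CpG methylation, which is found alone in the bodies of many active genes, while silent transposons also carry CpHpG and CpHpH methylation.

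BNS lies on the minus strand of chromosome 1, from 27516572 to 27517882 (1311 bp), with 4 exons. Exon 1 is in the 5′ UTR, coding sequence begins in exon 2 (27517277 to 27517388) and continues through exon 3 (27517141 to 27517194), and exon 4 (27516572 to 27516782) holds the last codons and the 3′ UTR. AT1G73175 occupies 27515033 to 27516568, 1536 bp, and ends 3 bp before the 3′ end of BNS. On the other side AT1G73180, annotated as related to a eukaryotic translation initiation factor, starts 8 bp from the 5′ end of BNS and is read in the opposite direction, and AT1G73170 lies beyond the element. The sequences below show the places that the values turn on, as the plus strand of TAIR10 on chromosome 1, with capitals for the 3 bases between the element and the gene, for 2 CpG pairs of the 3′ UTR, for 3 CpApG sites of exon 3 and for the CpCpG site of intron 1 that had the most reads. The sequences are from RefSeq (TAIR10.1).
border, chr1:27516554-27516583: cggaacgttcaagtgTAAttttttttagtt
3′ UTR CpG at 27516610, chr1:27516600-27516621: aatgggggttCGcccccctctt
3′ UTR CpG at 27516675, chr1:27516665-27516686: tcatacacaaCGagaaacaaga
exon 3, chr1:27517146-27517174: tcttCAGtatcatCAGttttaaCAGcaag
intron 1 CpCpG at 27517620, chr1:27517611-27517631: gtagtttcgCCGgagattatg

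The LINE insertion downstream of BNS was present in Ler-0. The 500 bp beyond the element and the 500 bp of the gene next to it were placed on 1 contig of the Ler-0 assembly in 1 orientation, and 1539 bp lay between them in Ler-0 as in Col-0. All 1536 bases of the element were aligned, and of 1270 element bases that could be compared 9 differed. In BNS itself 2 of 919 comparable bases differed, and each of the 83 CpHpG and 32 CpG cytosines of the gene had the same trinucleotide in Ler-0. The bases compared are those that the Ler-0 cytosine report resolves, since the Ler-0 sequence was rebuilt from that report. Within 100 kb of the locus 92 of 134 cytosines present only in Ler-0 had reads, 68.7%, where 77.1% of all Ler-0 cytosines had reads. In the locus itself all 3 such cytosines had reads, with a mean of 2.33. A Col-0 read with T at such a place would count as an unmethylated call. Having reads therefore cannot show which ecotype the DNA at this place came from.

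The libraries held 371653818 calls over 43080083 cytosines (Col-0) and 313387873 calls over 47623059 cytosines (Ler-0), a mean of 8.63 and 6.58 calls per cytosine. Over the locus the means were 9.39 and 7.94, with 93.8% and 87.7% of the cytosines covered. A level is the percentage of calls that were methylated, pooled over the cytosines of a context, and its 95% Wilson interval covers counting error only. The interval treats calls as independent. Calls of neighbouring cytosines can come from 1 read, so the intervals can be too narrow and the p-values of Fisher's exact test too small. Unconverted cytosines made 1.34% of the calls in the chloroplast DNA of Col-0 and 1.38% in that of Ler-0. The median gene had a lower CpHpH level, 1.10% in Col-0 and 1.15% in Ler-0. With 1 library per ecotype there is no replicate, and Fisher's exact test compares the calls of the libraries, not the ecotypes.

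BNS was methylated more highly in the Col-0 library than in the Ler-0 library in all 3 contexts. The CpHpG level of the gene was 37.4% in Col-0 (277/740 calls, 34.0 to 41.0%) and 14.3% in Ler-0 (80/558 calls, 11.7 to 17.5%). The CpG level was 33.3% in Col-0 (57/171 calls, 26.7 to 40.7%) and 2.29% in Ler-0 (3/131 calls, 0.782 to 6.52%). The CpHpH level was 5.71% in Col-0 (144/2520 calls, 4.87 to 6.69%) and 1.99% in Ler-0 (37/1858 calls, 1.45 to 2.73%). The intervals of the libraries, which count calls as independent, did not overlap in any context. Over the coding exons alone the CpHpG levels were higher, 51.7% in Col-0 (155/300 calls) and 21.0% in Ler-0 (42/200 calls), while the CpG levels were 5.88% in Col-0 (3/51 calls, 2.02 to 15.9%) against 2.94% in Ler-0 (1/34 calls, 0.521 to 14.9%). The CpG difference of the gene was therefore not detectable in the coding exons at this depth.

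Among 23943 protein-coding genes with enough CpHpG reads (10 or more covered cytosines, a mean of 4 or more reads per cytosine in each library, and 80% or more of the length aligned), BNS was 23.1 points higher in Col-0, a difference reached or exceeded by 127 of these genes counting BNS itself, 0.530%. Genes at least 20 points higher in Col-0 made up 0.731% of the genes (175), whereas genes at least 20 points higher in Ler-0 made up 2.76% (660). The median gene had a CpHpG level of 2.63% in Col-0 against 2.85% in Ler-0, and the levels of BNS were reached by 2.59% and 18.6% of the genes. A level of at least 50%, which 0.718% of genes had in Col-0 and 1.44% in Ler-0, was not reached by BNS in either library. In CpG methylation BNS differed by 31.04 points, under the limit of 40 points that 0.646% of 24158 genes passed in the same direction (0.451% toward Ler-0, with the order turned at 0.504% and 0.574% among genes with a mean of 8 or more reads), and in CpHpH methylation by 3.72 points, under the limit of 10 points that 0.255% of 20813 genes passed in that direction (0.0625% toward Ler-0).

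**Figure D1:**
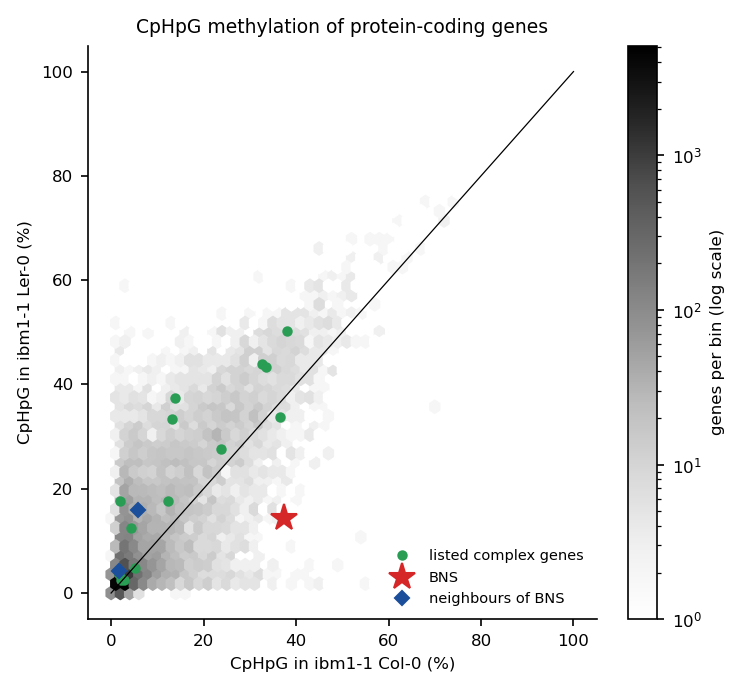
CpHpG methylation level (%) of each protein-coding gene with enough reads in ibm1-1 Col-0 (x axis) and ibm1-1 Ler-0 (y axis). Grey shades count genes per bin on a log scale, the star is BNS, green points are listed genes of the anaphase-promoting complex, blue diamonds are AT1G73170 and AT1G73180, and the line marks equal levels. BNS lies below the line at 37.4% and 14.3%, and AT1G73180 above it at 5.86% and 15.9%.

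The methylation of BNS was not spread evenly over the gene but sat mainly in its 3′ part. In Col-0 the CpHpG level was 37.1% in exon 4 (78/210 calls), 36.4% in intron 3 (83/228 calls) and 68.7% in exon 3 (112/163 calls, 61.2 to 75.3%). It dropped to 15.4% in intron 2 (4/26 calls), and no methylated CpHpG call was found among 20 calls of exon 2, 70 of intron 1 and 23 of exon 1, which allows levels of up to 15.0%, 4.29% and 13.04%. In Ler-0 exon 3 again had the highest level, but the levels of the 3′ parts were lower, with 11.04% in exon 4 (17/154 calls), 15.5% in intron 3 (25/161 calls), 30.9% in exon 3 (29/94 calls, 22.4 to 40.8%) and 11.8% in intron 2 (2/17 calls). Ler-0 had 4.55% in exon 2 (1/22 calls) and 0 of 29 calls in exon 1. Its intron 1 had 7.41% (6/81 calls, 3.44 to 15.2%), over the 1.38% of unconverted calls, so the 5′ part of Ler-0 was not free of methylated calls. Exons 3 and 4 with intron 3 together had 45.4% in Col-0 (273/601 calls) and 17.4% in Ler-0 (71/409 calls). The rest of the gene had 2.88% (4/139 calls) and 6.04% (9/149 calls), with overlapping intervals and only 3.56 and 3.82 reads per cytosine. The border between these stretches was chosen after the values were seen.

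**Figure D2:**
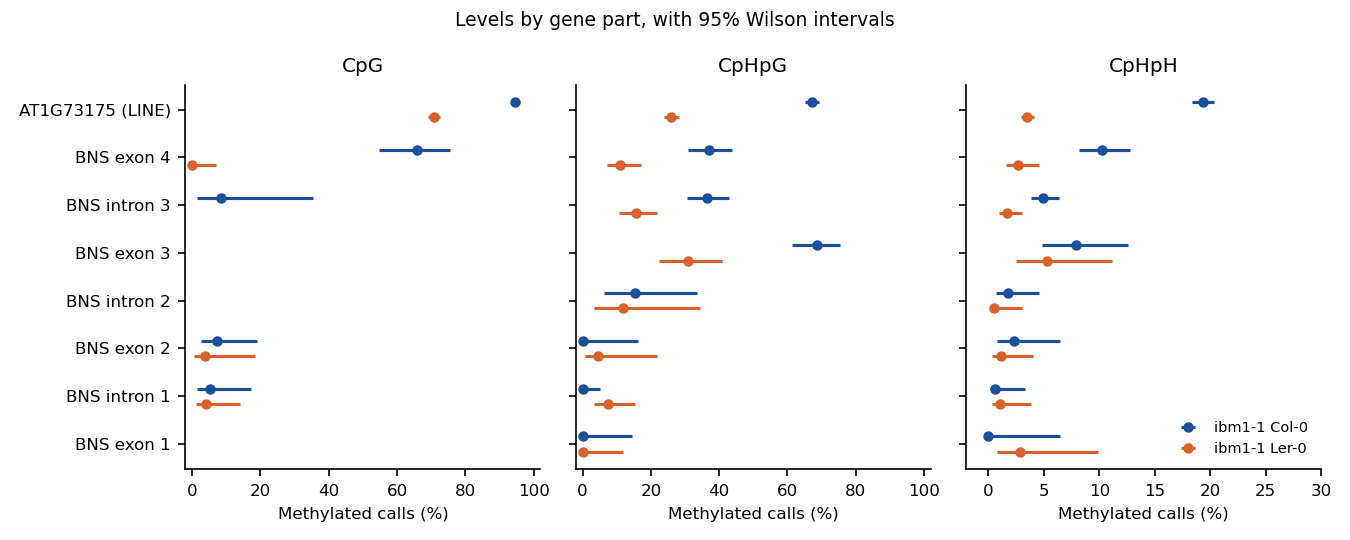
Methylation level (%) of AT1G73175 and of each part of BNS in the order of the genome, for CpG, CpHpG and CpHpH. Points are pooled levels of ibm1-1 Col-0 (blue) and ibm1-1 Ler-0 (orange), bars are 95% Wilson intervals, and values from fewer than 10 calls are not drawn. CpHpG methylation peaked in exon 3, at 68.7% in Col-0 against 30.9% in Ler-0, and was at 0 in exon 2 and in exon 1 of Col-0.

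Exon 3, where CpHpG methylation was highest, contains no CpG site, and neither does intron 2. In the exon 3 sequence shown above, the CpApG cytosine at 27517150 was methylated in 26 of 32 Col-0 reads and 6 of 19 Ler-0 reads, the one at 27517159 in 18 of 32 and 4 of 20, and the one at 27517168 in 24 of 36 and 9 of 22. The CpTpG cytosine at 27517177 had 27 of 45 and 10 of 28. These 4 plus-strand cytosines thus had more methylated reads in Col-0 at each place, and all 4 had methylated reads in Ler-0. The opposite strand of the exon was covered by few reads. There 17 of 18 Col-0 calls were methylated, and 0 of 5 Ler-0 calls, which allows up to 60.0%.

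The 3′ part of the gene also lacks CpCpG sites. All 44 CpHpG cytosines in exons 3 and 4 and intron 3 are in CpApG or CpTpG sites, 22 of each. CpApG sites had 49.7% in Col-0 (143/288 calls) and 17.2% in Ler-0 (34/198 calls), and CpTpG sites had 41.5% (130/313 calls) and 17.5% (37/211 calls). The 5 CpCpG sites of BNS are in exon 2, intron 1 and exon 1, outside the more highly methylated 3′ part. The external cytosine of a CpCpG site is in the CpHpG context and the internal one in the CpG context. Only the site at 27517620 in intron 1 had at least 5 reads at both cytosines. Its internal cytosine was methylated in 2 of 10 Col-0 reads and 0 of 12 Ler-0 reads, and its external cytosine in 0 of 12 and 3 of 13. This site therefore stayed under 50% at the internal and 25% at the external cytosine in both libraries, and the other 4 sites had 3 reads or fewer at each cytosine.

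**Figure D3:**
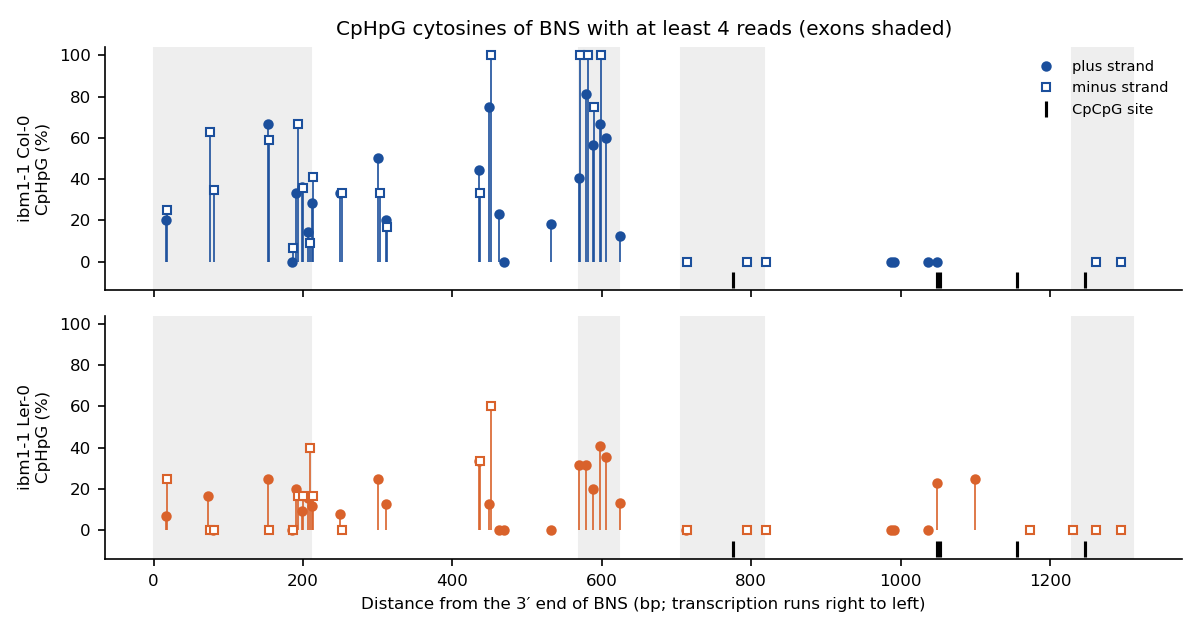
Methylation level (%) of single CpHpG cytosines of BNS with at least 4 reads, by distance (bp) from the 3′ end of the gene, in ibm1-1 Col-0 (top) and ibm1-1 Ler-0 (bottom). Filled circles are the plus strand and open squares the minus strand, exons are shaded, and black ticks mark CpCpG sites. Methylated cytosines crowd the first 623 bp of the gene, which hold none of the 5 CpCpG sites.

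Single cytosines gave the same picture as the pooled levels. Of 30 CpHpG cytosines in exons 3 and 4 and intron 3 with at least 5 reads in both libraries, 25 were higher in Col-0, 2 were higher in Ler-0 and 3 were equal. In Col-0 24 of 34 such cytosines with at least 5 reads reached 25%, and 11 reached 50%. In Ler-0 10 of 32 reached 25%, and 1 reached 50%. In the rest of the gene no cytosine reached 25% in either library, among 10 with at least 5 reads in each. These cytosines share reads with their neighbours and are not independent.

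CpG methylation of BNS was present in Col-0 at 2 CpG pairs next to the element and was not seen there in Ler-0. The 3′ UTR had 92.5% CpG methylation in Col-0 (49/53 calls, 82.1 to 97.0%) while Ler-0 had 0 of 36 calls, a count that allows up to 8.33%. At the pair at 27516610 Col-0 had 3 of 3 methylated reads on the plus strand and 17 of 17 on the minus strand, against 0 of 10 and 0 of 4 in Ler-0. At the pair at 27516675 Col-0 had 6 of 7 and 23 of 26 methylated reads, against 0 of 13 and 0 of 9 in Ler-0. The next CpG pair, at 27516746 in the coding part of exon 4, was low in both libraries, with 1 of 9 and 0 of 14 methylated reads in Col-0 and 0 of 10 and 0 of 6 in Ler-0. In Ler-0 the CpHpG methylation of exon 4 (11.04%) and exon 3 (30.9%) thus stood in a stretch where none of 54 CpG calls was methylated. Of these calls 52 were in exon 4 and 2 in intron 3, so CpG methylation near exon 3 was hardly measured in Ler-0.

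By assigned calls, the element AT1G73175 was methylated over its full length in Col-0 but only over the part next to BNS in Ler-0. As a whole it had 94.5% CpG methylation in Col-0 (2602/2754 calls) and 70.8% in Ler-0 (1705/2407 calls), 67.3% and 26.0% CpHpG methylation, and 19.3% and 3.48% CpHpH methylation. In the 500 bp farthest from BNS the CpG level was 95.9% in Col-0 (750/782 calls) and 1.92% in Ler-0 (7/364 calls), and the CpHpG level 74.4% (617/829 calls) and 2.74% (10/365 calls). In the 500 bp next to BNS the CpG levels were alike, 93.8% in Col-0 (1169/1246 calls) and 95.5% in Ler-0 (1173/1228 calls), while the CpHpG level was 64.9% (490/755 calls) against 42.7% (299/701 calls) and the CpHpH level 20.4% (506/2477 calls) against 4.99% (111/2224 calls). The CpHpG level thus fell from the near part of the element to exon 4 of BNS in both libraries, whereas the CpG level of Ler-0 fell from 95.5% in the element to 0 of 52 calls in exon 4, which allows up to 5.77%. The distances of 500 bp were chosen after the values were seen. Copies of the element, described below, may add reads to its levels.

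**Figure D4:**
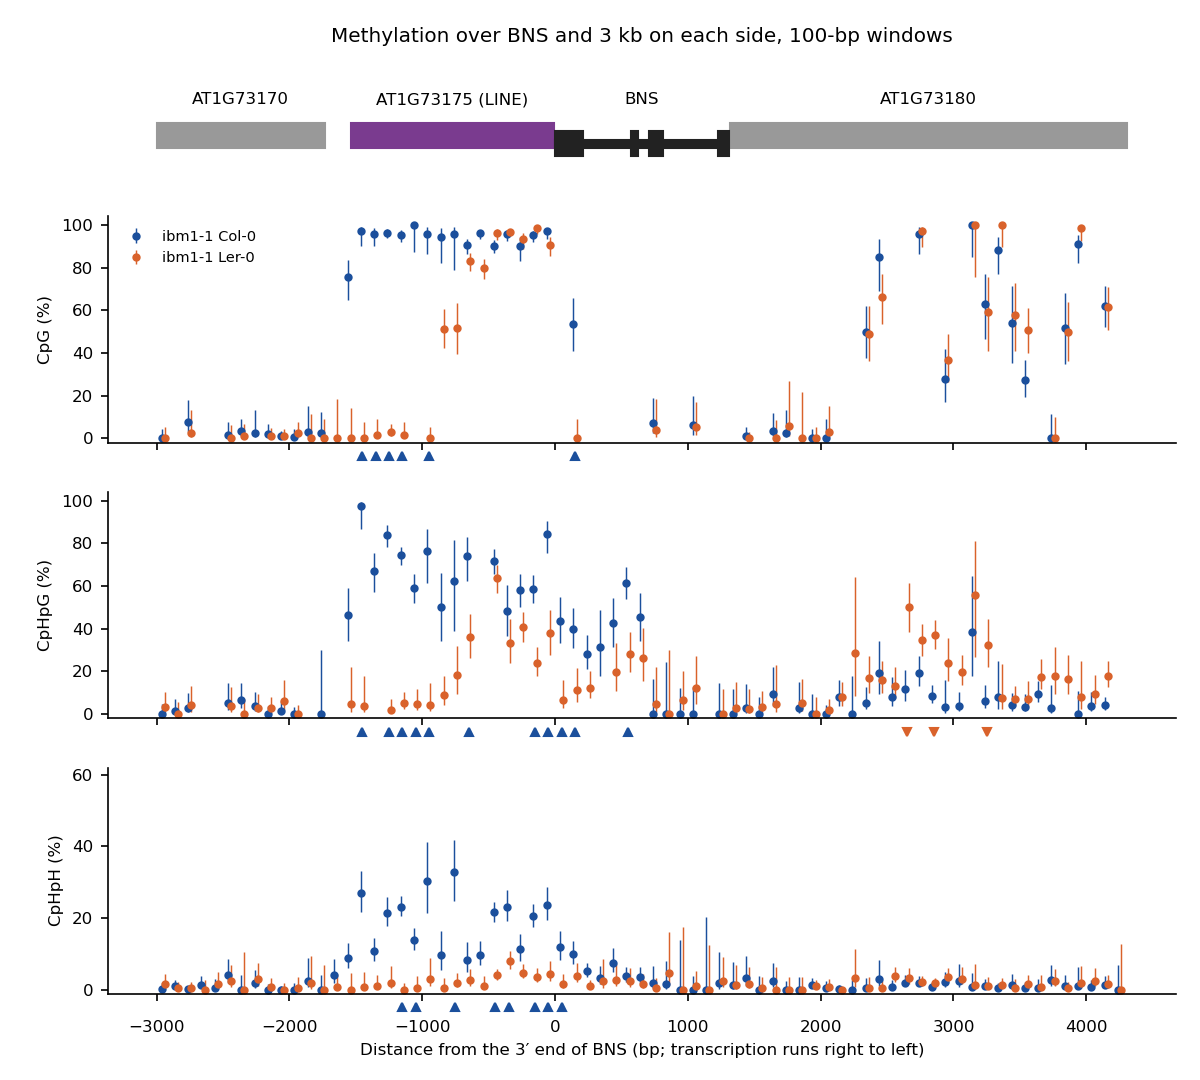
Methylation level (%) in 100-bp windows over BNS and 3 kb on each side, by distance (bp) from the 3′ end of BNS, for CpG (top), CpHpG and CpHpH (bottom). Points are ibm1-1 Col-0 (blue) and ibm1-1 Ler-0 (orange) in windows with at least 4 covered cytosines, bars are 95% Wilson intervals, and triangles under an axis mark windows called higher in Col-0 (up) or in Ler-0 (down). Col-0 was higher over the far part of the element in CpG and over most of the element and the 3′ part of BNS in CpHpG.

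Copies of the element elsewhere in the genome bear on its values. In TAIR10 a blastn search found a copy of the whole element on chromosome 5 (14578812 to 14580348, 98.3% identical, 26 differences over 1537 bp) and a copy of the 863 bp next to BNS on chromosome 1 (5958704 to 5959566, 98.1% identical, 16 differences). Beside the latter a further match of 112 bp (5959569 to 5959680, 99.1% identical) covers bases 39 to 150 of the element, at its end far from BNS, and a more distant match of 331 bp with 77.3% identity lies on chromosome 4. Next to the chromosome 1 copy, bases 2 to 66 of BNS, counted from its 3′ end, had a match as well (5958636 to 5958700, 97.0% identical), and the rest of the gene had no match elsewhere. In Ler-0 363 of the 863 bases of the chromosome 1 copy were placed directly, at a place of their own, and its levels were taken over the stretch between the bases placed at its ends, while the chromosome 5 copy could not be placed on its own, and 999 of its bases were placed on the element at BNS. In Col-0 the chromosome 5 copy had 93.2% CpG and 54.1% CpHpG methylation, and the chromosome 1 copy 96.0% and 64.7%. In Ler-0 the chromosome 1 copy, over that stretch, had 94.4% CpG (1872/1984 calls) and 47.6% CpHpG methylation (464/974 calls).

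The 863 bp of the element next to BNS, which the longer chromosome 1 copy covers, were methylated in Ler-0, and the other 673 bp had little methylation. In those 863 bp Ler-0 had 88.4% CpG (1698/1921 calls) and 37.4% CpHpG methylation (351/939 calls), and in the other 673 bp 1.44% (7/486 calls) and 3.56% (17/477 calls). Col-0 had 93.8% and 62.1% in the former, and 95.9% and 72.5% in the latter. The 112-bp match on chromosome 1 lies within the latter stretch, and in Ler-0 it had 0 of 40 methylated CpG calls, which allows up to 7.50%, against 61.1% in Col-0 (55/90 calls). Within the 863 bp the Ler-0 levels were not even. The 100-bp window that begins 800 bp from BNS, near their far end, had 51.6% CpG (32/62 calls) and 18.2% CpHpG (8/44 calls) in Ler-0. In Ler-0 the 500 bp of the element next to BNS had 18.6 reads per CpG cytosine, and the 500 bp farthest from BNS had 9.58. Per CpHpH cytosine these stretches had 15.9 and 4.47 reads in Ler-0. The whole Ler-0 library had a mean of 6.58 calls per cytosine over all contexts, a measure unlike the depth in 1 context. In Col-0 the depths per CpG cytosine were 20.8 and 20.6, and per CpHpH cytosine 17.4 and 14.5. The mean of the Col-0 library over all contexts was 8.63. Short reads from a copy can be assigned to the element where the sequences are alike. The part of such reads in the levels of the element was not tested. BNS beyond its last 66 bp had no such copy, and there the CpHpG level was 37.8% in Col-0 (272/719 calls) and 14.5% in Ler-0 (78/539 calls), and the CpG level 24.5% (37/151 calls) and 2.56% (3/117 calls).

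Windows of 100 bp with 4 or more covered cytosines of a context and on average 4 or more reads per cytosine in each library were compared by a two-sided Fisher's exact test, and p-values were adjusted by Benjamini-Hochberg over all aligned windows of the nuclear genome. A window was called at an adjusted p under 0.01 with a difference of at least 40 points for CpG, 20 points for CpHpG or 10 points for CpHpH. In the CpHpG context 11 of 50 tested windows of the locus were called higher in Col-0, 22.0%, where 1.73% of all tested windows of the genome were, and 3 were called higher in Ler-0, 6%, where 7.14% were. In the CpG context 6 of 39 tested windows were called higher in Col-0, 15.4% against 4.61% in the genome, and 0 higher in Ler-0, where 4.34% of the genome were. In the CpHpH context 8 of 51 tested windows were called higher in Col-0, 15.7% against 1.01%, and 0 higher in Ler-0, against 0.572%. Most windows called higher in Col-0 lay wholly in AT1G73175, with 7 for CpHpG, 5 for CpG and 6 for CpHpH. Reads of copies of this element may add to the levels of its windows. Calls within a window and neighbouring windows share reads, and the locus is 1 stretch, so its windows do not count as separate events.

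Of the windows that lie wholly in BNS, 3 of 8 tested were called in the CpHpG context, all of them higher in Col-0. The window that begins at the 3′ end of the gene had 43.8% in Col-0 (35/80 calls) and 6.56% in Ler-0 (4/61 calls), with an adjusted p of 8.47e-06 by Fisher's exact test. The next window had 39.8% (39/98 calls) and 11.3% (7/62 calls), with an adjusted p of 0.000885 by the same exact test. The window that begins 500 bp into the gene and holds most of exon 3 had 61.5% (99/161 calls) and 28.1% (25/89 calls), with an adjusted p of 8.64e-06 by the exact test. In the CpG context 1 of 3 tested windows was called, 100 bp into the gene, with 53.6% in Col-0 (30/56 calls) and 0 of 38 calls in Ler-0. In the CpHpH context 1 of 7 was called, at the 3′ end, with 11.9% (31/261 calls) and 1.76% (4/227 calls).

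The genes on both sides of BNS and the element differed from BNS. AT1G73180 is a body-methylated gene, with a CpG level of 43.0% in Col-0 (580/1349 calls, 40.4 to 45.7%) and 42.3% in Ler-0 (556/1313 calls, 39.7 to 45.0%), and which library was higher turned with the strand and the read minimum. Its CpHpG level was 5.86% in Col-0 (130/2220 calls) and 15.9% in Ler-0 (372/2343 calls), so that it was higher in the library in which BNS was lower. The 3 windows called higher in Ler-0 all lay in this gene. The strongest had 8.23% in Col-0 (13/158 calls) and 37.0% in Ler-0 (74/200 calls), with an adjusted p of 3.50e-09 by Fisher's exact test. The methylated windows of AT1G73180 began about 2300 bp from the 3′ end of BNS. The windows of this gene nearer to BNS had CpG levels of at most 5.88% in both libraries.

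AT1G73170, on the far side of the element, had little methylation within 3 kb of BNS. Its CpG level there was 1.83% in Col-0 (16/875 calls) and 1.03% in Ler-0 (7/678 calls), and its CpHpG level 1.88% and 2.19%. None of the windows on this side was called in any context. In the 195 bp between AT1G73170 and the element Col-0 had a CpHpG level of 36.0% (27/75 calls, 26.1 to 47.3%), with a CpG level of 2.13% (1/47 calls), and Ler-0 had 2.56% (1/39 calls) and 0 of 52 calls. In Col-0 CpHpG methylation without CpG methylation was therefore found on both sides of the element, on one side in BNS beyond the 3′ UTR and on the other in this short stretch.

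The CpCpG sites of the element, unlike those of BNS, were methylated. Of its 41 CpCpG sites 28 had at least 5 reads at both cytosines in Col-0, and of these 27 were methylated at both (at least 50% internal, at least 25% external) and 1 at the internal cytosine alone. In Ler-0 25 sites had enough reads, of which 13 were methylated at both cytosines, 6 at the internal cytosine alone and 6 at neither. No site in either library was methylated at the external cytosine alone. External cytosines of the element pooled to 57.0% in Col-0 (335/588 calls) and 22.8% in Ler-0 (101/443 calls, 19.1 to 26.9%). CpApG sites had 73.6% (615/836 calls) and 29.4% (178/605 calls, 25.9 to 33.2%). CpTpG sites had 69.0% (331/480 calls) and 24.2% (89/368 calls, 20.1 to 28.8%). In Ler-0 the interval of the external cytosines overlapped those of CpApG and CpTpG sites.

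Few other genes had such a neighbour. Of the protein-coding genes with enough reads, 441 had an annotated pseudogene, a class that includes transposon remnants, within 500 bp past the 3′ end. In 316 of these the pseudogene had enough reads as well. Beside the 33 pseudogenes whose CpHpG level in Col-0 was 50% or more, 14 genes had a CpHpG level of at least 20% (42.4%). Beside the other 283 pseudogenes 57 genes had such a level (20.1%). The 33 include the element beside BNS, and the 14 include BNS itself. The share of all genes with at least 20% is not given here. In Ler-0 these counts were 21 of 47 (44.7%) and 63 of 269 (23.4%). Only 5 of these pseudogenes were at least 20 points higher in Col-0 than in Ler-0, and BNS was the 1 gene beside them that was also at least 20 points higher in Col-0. Among the other 311 pairs 2 genes were at least 20 points higher in Col-0. These counts are descriptions and were not tested.

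Other genes of the anaphase-promoting complex were compared between the libraries as a list. The list held 16 genes, 11 subunits and 5 activators, and 15 had enough CpHpG reads. None was at least 20 points higher in Col-0, where 0.731% of all genes were. At that share most lists of 15 genes would hold none, so this count does not set the list apart. At least 20 points higher in Ler-0 were 2 of the listed genes, where 2.76% of all genes were. AT1G78770 (APC6), a subunit with tetratricopeptide repeats, had 13.8% in Col-0 (358/2600 calls) and 37.5% in Ler-0 (1133/3022 calls). AT1G06590, which the annotation names as a subunit of the complex, had 13.1% (588/4496 calls) and 33.4% (1432/4289 calls). The largest difference toward Col-0 was that of AT2G20000 (HBT), a CDC27-like subunit, with 36.6% (1840/5034 calls) and 33.7% (1438/4272 calls), and this gene was chosen after its values were seen. The highest level in both libraries was that of AT2G04660 (APC2), the cullin-like subunit of the catalytic core, with 38.1% in Col-0 (1322/3472 calls) and 50.2% in Ler-0 (1688/3361 calls), the single gene of the list to reach 50%. The medians of the 15 genes were 12.2% in Col-0 against 17.7% in Ler-0, with ranges of 1.81 to 38.1% and 2.54 to 50.2%.

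The genes whose levels were most like those of BNS were found by the Euclidean distance over 6 levels (3 contexts in 2 libraries) among 20544 genes with enough reads in all contexts. The nearest was AT3G45880, annotated as a 2-oxoglutarate and iron-dependent oxygenase, at a distance of 2.96 percentage points. Its CpG level was 35.5% in Col-0 against 2.78% in Ler-0, and its CpHpG level 35.8% and 15.4%. The other 4 were farther away, at 11.4 to 16.0 points. They were AT2G37370 (a centrosomal protein-like gene), AT1G27000 (a GRIP/coiled-coil protein), AT3G01085 (a protein kinase) and AT2G15430 (NRPB3, a subunit of RNA polymerase II). In Col-0 these 5 genes had 31.2 to 35.5% CpG and 28.1 to 38.5% CpHpG methylation. None of them had an annotated pseudogene within 500 bp past the 3′ end. Only 441 of the 23943 genes with enough CpHpG reads had one, so its absence beside 5 genes does not set them apart.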

How the data were processed

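The authors made bisulfite libraries (EZ-DNA Methylation-Gold and TruSeq DNA methylation kits) and, per the submitters' processing notes, used Trimmomatic and Bismark (versions not given in the sources used here). Reads of Col-0 were aligned to TAIR10 and reads of Ler-0 to a PacBio assembly of that ecotype. The deposited files hold, per cytosine, the count of methylated and of unmethylated calls, without normalization. Groups follow the ecotype label.

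A level is methylated calls over all calls, with 95% Wilson intervals (scipy 1.17.1, Python 3.11.15). The Ler-0 sequence was rebuilt from position, strand and trinucleotide of each reported cytosine, and 500-bp TAIR10 tiles were placed on it with bwa 0.7.19 (alternatively minimap2 2.31 or 250-bp tiles). Gene models and printed sequences are from RefSeq (TAIR10.1, the TAIR10 chromosomes). Copies were sought with blastn 2.17.0 (e-value at most 1e-10). Windows were compared by Fisher's exact test with Benjamini-Hochberg adjustment. In simulated data 136 of 200 CpHpG windows raised by 40 points, 180 of 200 CpG windows raised by 60 points and 196 of 200 CpHpH windows raised by 25 points were recovered, with 0 false calls. All other windows had the same level in both simulated libraries, and calls were drawn independently. Variation between plants and the sharing of reads by calls were not simulated, so the 0 false calls do not cover them.

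Named genes were BNS, its neighbours within 3 kb, the listed complex genes past a limit or with the highest level, and the 5 genes nearest by level. Members and lists were chosen with earlier results of these data known. Alternatives changed read minimum, strand, test, window, aligner and gene set. WT libraries were not analysed here.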

Additional observations from a re-analysis of the deposited data

How the results depend on the processing

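The higher level of Col-0 in BNS kept its direction in all 3 contexts under every alternative tried, but over coding exons Col-0 had a CpG level of 5.88% and Ler-0 one of 2.94%, with overlapping intervals. The order of the libraries did turn in CpG elsewhere. Genes at least 40 points higher made 0.504% toward Col-0 and 0.574% toward Ler-0 at a mean of at least 8 reads, and AT1G73180 had 48.5% (Col-0) and 49.9% (Ler-0) over cytosines with at least 8 reads and 45.0% and 49.5% on the plus strand. Of 137 alternatives to the main values 107 stayed within the limits set for them, and 30 moved. Of 254 alternatives for single parts of the gene, the neighbours and single windows 214 stayed and 40 moved, among them the CpHpG level of exon 3 on the minus strand, 94.4% in Col-0 and 0% in Ler-0. For BNS the CpG level of Col-0 was also 23.3% on the plus strand and 24.5% without the 3′ bases that have a copy, an alternative chosen after seeing the data. Coding exons gave Col-0 a CpHpG level of 51.7% and a CpHpH level of 6.80%, Ler-0 21.0% and 3.05%, and the minus strand gave a CpHpG level of 8.00% in Ler-0. With the rate of unconverted cytosines subtracted the CpHpH level of Col-0 was 4.44% and that of Ler-0 0.617%. In windows, 5 were called higher in Col-0 in CpHpH at a mean of at least 8 reads, and 1 higher in Ler-0 in CpG with windows moved by 50 bp.

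At a mean of at least 8 reads 1.70% of genes in Col-0 and 3.71% in Ler-0 had at least 50% CpHpG, 6.23% were at least 20 points higher in Ler-0 in CpHpG, and 0.502% (Col-0) and 0.134% (Ler-0) at least 10 points higher in CpHpH, the last share being 0.103% with 50% of the length aligned. Among genes with a pseudogene past the 3′ end, 1.59% in Col-0 and 4.54% in Ler-0 had at least 50% CpHpG, 1.13% were higher in Col-0 in CpHpG, 1.35% in CpG and 0.508% in CpHpH, and 0% higher in Ler-0 in CpG or CpHpH. At CpCpG sites of the element, a minimum of 3 reads gave 2 sites in Col-0 methylated at the internal cytosine alone. A limit of 50% for the external cytosine left Col-0 with 17 sites methylated at both cytosines and 11 at the internal one alone, and Ler-0 with 4 and 15. The cause of these moves was not tested where the alternative's own construction does not show it.

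No paired analysis was possible because each ecotype had 1 library, and no alternative left out a library. Depth limits the 5′ part of BNS most, with 3.56 and 3.82 reads per CpHpG cytosine.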
